A study of Homo sapiens with 21 samples.

Results

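GPR83 is a G protein-coupled receptor gene, and its transcript is described here in HepG2/C3A cells, a human liver tumour-derived line, across a monolayer culture and a time course of 3D spheroids. It is 1 of 19683 genes in the count table and was chosen by its measured level, for a level at Day 3 of spheroid culture over 100-fold below the monolayer and a higher level again at Day 14. Its levels in the monolayer, at Day 3 and at Day 14 are therefore given as a description, with no test. The return was partial, since the Day 14 mean was 10.1% of the monolayer mean.

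Spheroids were formed by aggregation of the same cells in ultra-low attachment plates and then held in a ClinoReactor, a culture vessel for long-term 3D growth, until Day 3, 7, 10, 14, 21 or 28. The control was the 2D monolayer. The labels give every group the genotype WT, describe 1 culture medium with fetal bovine serum, and name no added agent. Each of the 7 groups had 3 libraries, 21 in all, measured by TempO-Seq, in which pairs of short detector oligos are ligated on RNA and counted. The labels call the replicates biological without saying that they were separate cultures, so p-values below measure the spread between these samples, which may be technical.

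Total counts ranged between 18760232 and 43443262 per library (median 31997292). Levels are CPM, the counts of a gene relative to library sizes scaled by the trimmed mean of M values (TMM), given as mean ± SD over n = 3 libraries. At this scale 1 CPM stood for 18.7 counts in the shallowest library and 40.8 in the deepest. Log2 fold changes come from edgeR and are given ± SE. Calls use a threshold of 0.05 on p-values adjusted by the Benjamini-Hochberg method for the 12345 genes tested. The cells' liver origin was visible in all groups: the summed level of 9 hepatocyte markers (ALB, AFP, APOA1, APOB, TTR, SERPINA1, TF, HNF4A and TAT) ran from 50483 to 52334 CPM at Day 3, 42306 to 48717 at Day 14 and 36984 to 45563 at Day 28, against 10605 to 11432 CPM in the monolayer.

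As background, GPR83 belongs to the rhodopsin-like receptors. It was first isolated in mouse lymphoid cells as a gene that glucocorticoids induce, and it is best known from the brain and from regulatory T cells. The neuropeptide PEN, cut from the precursor proSAAS, and the FAM237A and FAM237B peptides have been proposed as its ligands. Signalling through Gq to phospholipase C, and through Gi, has been described for it.

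In GENCODE 29 on GRCh38, GPR83 (ENSG00000123901.8) lies on the minus strand of chromosome 11 from 94377311 to 94401419, a span of 24109 bases with 2 annotated transcripts. One transcript has 4 exons and the other 3. The sources used here do not give which exon the detector oligos read. The 250 bases before the RefSeq start (GRCh38.p14, chr11:94401420-94401669, minus strand) are shown, 5′ to 3′, because genes with the same profile over the libraries are compared with GPR83 below. Capitals mark matches to the motifs searched.
GPR83 promoter: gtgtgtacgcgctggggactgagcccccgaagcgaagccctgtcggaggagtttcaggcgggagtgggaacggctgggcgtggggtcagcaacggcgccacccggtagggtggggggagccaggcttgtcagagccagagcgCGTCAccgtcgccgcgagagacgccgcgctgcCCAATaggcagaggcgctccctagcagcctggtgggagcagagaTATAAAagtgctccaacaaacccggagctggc

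The first capital run is the reverse-strand form of TGACG, the core of the cAMP response element, 108 to 104 bases before the start. CCAAT lies 76 to 72 bases before the start, and TATAAA 32 to 27 bases before it. Both strands of 35116 RefSeq promoter windows of the same length were searched, and 21.2% held TGACG, 32.0% CCAAT and 10.7% TATAAA. The motifs CCAAT and TATAAA were searched after the letters of this promoter had been seen. No match to the AP-1 motif TGANTCA, the full cAMP element TGACGTCA (which contains TGACG), the TEAD motif GGAATG or the glucocorticoid receptor core TGTNCT was in this window. Those 4 were in 6.57%, 1.65%, 11.9% and 35.5% of all windows. The GC content of the GPR83 window was 67.2%, against a median of 58% over all windows.

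GPR83 took 3 tiers over the 7 groups. In the 3 monolayer libraries it stood at 240, 227 and 227 CPM. The Day 3 libraries had 2.44, 0.934 and 1.28 CPM, those of Day 7 had 1.94, 0.727 and 0.857 CPM, and those of Day 10 had 1.74, 1.12 and 1.55 CPM. The Day 14 libraries had 26.6, 17.97 and 25.9 CPM, those of Day 21 had 13.7, 12.3 and 11.2 CPM, and those of Day 28 had 17.0, 23.7 and 29.6 CPM. No library of Days 14 to 28 overlapped those of Days 3 to 10 or those of the monolayer. The low tier was still counted in every library, with 27 to 98 GPR83 counts.

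The monolayer mean was 231 ± 7.49 CPM. Early spheroids averaged 1.55 ± 0.787 CPM (Day 3), 1.17 ± 0.665 (Day 7) and 1.47 ± 0.319 (Day 10). Later ones averaged 23.5 ± 4.79 CPM (Day 14), 12.4 ± 1.27 (Day 21) and 23.4 ± 6.33 (Day 28). In order of level the monolayer was highest, followed by Days 14 and 28, whose libraries overlapped, and by Day 21, whose libraries all lay below theirs. Days 3, 10 and 7 came last, and neighbours in that order overlapped. As a share of the monolayer mean, GPR83 stood at 0.669%, 0.507% and 0.634% on Days 3, 7 and 10. On Days 14, 21 and 28 it stood at 10.1%, 5.37% and 10.1%. In bulk RNA, fewer cells with a transcript and less of it per cell cannot be told apart.

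**Figure D1:**
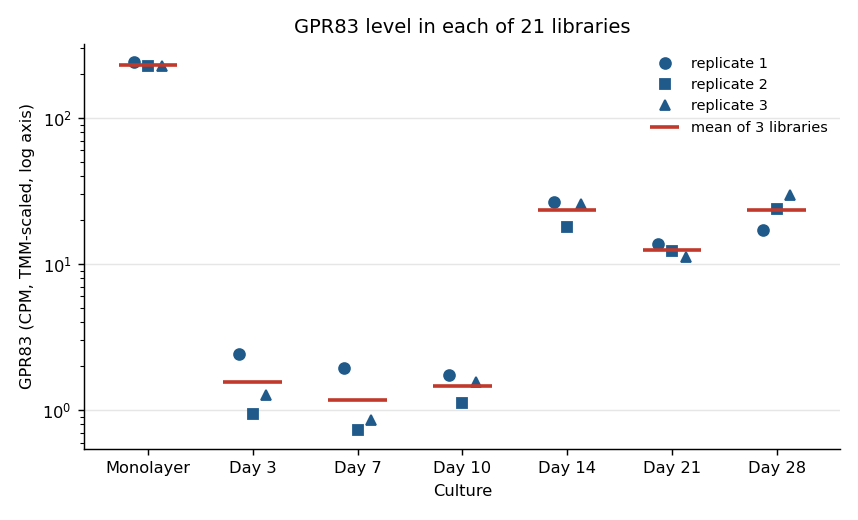
GPR83 in CPM on a log axis, 1 symbol per library and a red line at the mean of 3 libraries, for the monolayer and Days 3 to 28. The monolayer libraries sit at 227 to 240 CPM, those of Days 3 to 10 at 0.727 to 2.44 CPM and those of Days 14 to 28 at 11.2 to 29.6 CPM.

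In the fit, GPR83 was 142-fold lower at Day 3 than in the monolayer (log2 -7.15 ± 0.32). This was the 25th largest fall of the 12345 genes tested. It was 198-fold lower at Day 7 and 161-fold lower at Day 10. At Day 14 it was 16.3-fold higher than at Day 10 (log2 4.03 ± 0.33), also the 25th largest rise in that comparison. Both ranks count genes at 0 in a group, whose fitted folds depend on the fit. Against the monolayer it was still 9.84-fold lower at Day 14, 18.6-fold lower at Day 21 and 9.81-fold lower at Day 28. These comparisons share the monolayer libraries, and those with Days 3 and 14 hold values by which the gene was chosen. Day 3 replicate 1 and Day 7 replicate 1 each had the highest level of their group, and the fold below the monolayer was 209 without the one at Day 3 and 288 without the one at Day 7.

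Days 21 and 28 were not named in the choice of GPR83, and the change between them was tested. The change between Days 7 and 10 was tested too, but the return at Day 14 is measured from Day 10. That second test is therefore not independent of the choice. GPR83 was 1.90-fold higher at Day 28 than at Day 21 (log2 0.92 ± 0.25, 95% interval 0.39 to 1.46, edgeR quasi-likelihood test, adjusted p = 0.0134). All 3 Day 28 libraries lay above all 3 Day 21 libraries. In that comparison 24.0% of all genes tested were called, 10.0% of all as higher and 14.0% as lower. The call rested on Day 28 replicate 3, without which the log2 difference was 0.72 with an edgeR adjusted p = 0.0709. Between Day 10 and Day 7 GPR83 did not pass the test (log2 0.30 ± 0.46, 95% interval -0.67 to 1.27, edgeR adjusted p = 0.686), where 27.4% of all genes were called.

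The depth of the Day 3 level and the size of the Day 14 rise were next set beside the other genes with a like fall. A fitted fall of over 100-fold at Day 3 was found for 39 genes, 0.316% of those tested. Of the 39, 21 were at 0 counts in all Day 3 libraries and 29 were under 10 CPM in the monolayer, so most of these folds rest on few counts. DUSP5 (107-fold), CFAP58 (110-fold) and SUN3 (111-fold) were just inside the threshold. AQP3 (93.3-fold), FGF2 (91.0-fold) and GEM (87.4-fold) were just outside it. At Day 14, 20 of the 39 stood over 2-fold above Day 10 in the fit and 2 stood over 2-fold below it. Some of these 20 had 0 counts at Day 10. The same share over all genes tested was not counted, so no comparison with it is drawn. The fitted rise of GPR83 was the third largest, after those of CYP2B7P and IL1RL1, which had 0 counts at Day 10, so that their folds are set by the fit.

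With a minimum of 10 CPM in the monolayer, set after the values were seen, 10 of the 39 genes were left. They were GPR83, IL11 (a cytokine), ATP6V0D2 (a proton pump subunit), SPNS2 (a sphingosine-1-phosphate transporter), RGCC (a cell cycle regulator), AREG (a growth factor that binds EGFR), GPRC5A (an orphan receptor), PLEKHH2, BIRC7 (an inhibitor of apoptosis) and DUSP5 (a phosphatase of ERK kinases). GPR83 was 16.3-fold higher at Day 14 than at Day 10, and the other 9 lay between 1.07-fold and 4.92-fold. The Day 14 means of the other 9 were 0.580% to 8.17% of the monolayer, against 10.1% for GPR83. GPR83 was chosen for its return at Day 14, so its place among them is not independent of the choice. Just under the 10 CPM minimum, OSCAR, an immunoglobulin-like receptor known from osteoclasts and named after its values were seen, had a rise like that of GPR83. It stood at 0.174, 0 and 0 CPM at Day 3 and 0.898, 1.47 and 1.13 CPM at Day 14, against 9.66, 8.42 and 8.07 CPM in the monolayer. Its Day 14 level was 14.7-fold that of Day 10 in the fit and 13.4% of the monolayer mean. That fold rests on few counts, as OSCAR had 0, 0.136 and 0.0645 CPM at Day 10. Its mean was lower at Day 21 (0.428 CPM) than at Day 14 (1.17 CPM) or Day 28 (0.680 CPM). AREG, for example, stood at 27.6, 14.4 and 12.97 CPM at Day 3 and 14.9, 22.3 and 27.5 CPM at Day 14, against 2302, 2619 and 2600 CPM in the monolayer. Its Day 3 and Day 14 libraries overlapped. BIRC7 had the highest Day 14 share of the 9. It averaged 0.108 ± 0.0400 CPM at Day 3 and 0.636 ± 0.186 at Day 10, then 1.12 ± 0.334 (Day 14), 1.37 ± 0.471 (Day 21) and 1.70 ± 0.380 (Day 28), against 13.7 ± 1.39 CPM in the monolayer. Unlike GPR83 it was not lower at Day 21 than at Day 14 by group means. Its share of the monolayer was 10.0% at Day 21 and 12.4% at Day 28, above the 5.37% and 10.1% of GPR83.

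**Figure D2:**
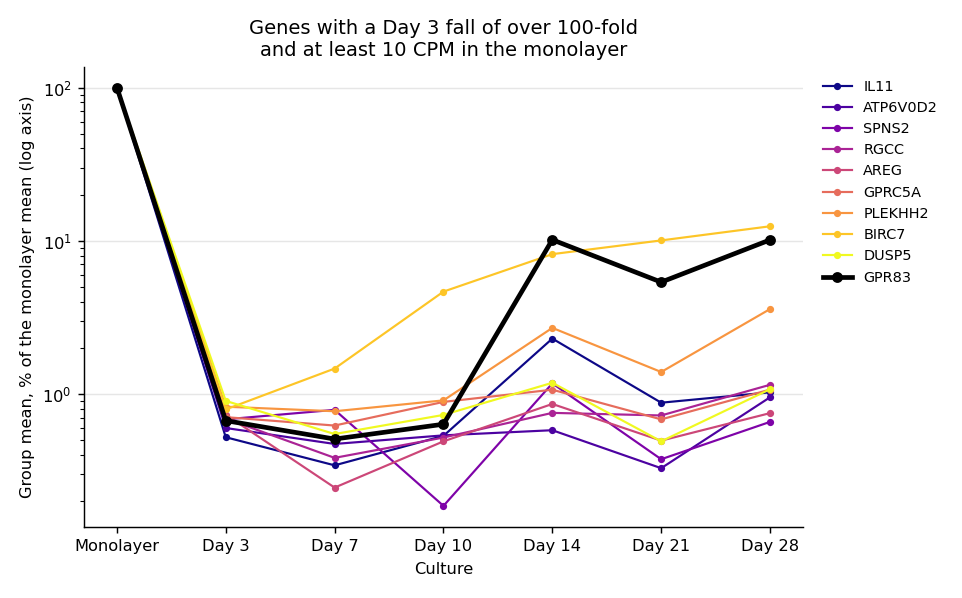
Group means as a percentage of the monolayer mean (log axis) for GPR83, in black, and the 9 other genes with a fitted Day 3 fall of over 100-fold and at least 10 CPM in the monolayer. At Day 14 GPR83 stands at 10.1% and the 9 others at 0.580% to 8.17%, while OSCAR, under the minimum and not drawn, stands at 13.4%.

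The higher GPR83 level of replicate 1 at Days 3 and 7 was shared by these genes. Of the 9 others, 8 were highest in replicate 1 at Day 3, 8 at Day 7 and 1 at Day 10. Their summed level was 37.6, 19.6 and 18.8 CPM in the 3 Day 3 libraries and 22.6, 5.81 and 5.83 CPM in those of Day 7. AREG alone gave 27.6, 14.4 and 12.97 CPM of the Day 3 sums and 13.9, 2.45 and 2.06 CPM of the Day 7 sums. IL11, ATP6V0D2, SPNS2, GPRC5A and BIRC7 were under 1 CPM in all libraries of Days 3 and 7, so their order between replicates rests on few counts. At Day 3, GPR83 in replicate 1 was 2.205-fold the mean of the other 2 libraries. A part of these libraries in the GPR83 values was not tested.

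Genes with the profile most like that of GPR83 were taken by Pearson's r of log2 CPM over the 21 libraries, among 1583 genes whose highest and lowest group means differed by at least 3 on the log2 scale. The 10 nearest, by falling r, were CD55, ARHGEF2, EGR1, KCNMB3, GTPBP2, IFRD1, TMEM268, HSPA13, TRIB3 and MAP1LC3B. CD55, a cell-surface inhibitor of complement, was nearest, with r = 0.994 (Spearman's rho 0.955) over 21 libraries and r = 0.989 over the 18 spheroid libraries. The tenth, MAP1LC3B, had r = 0.970. These values describe profiles that share the same libraries and the same steps between groups, so they carry no p.

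CD55 stood at 20.0, 13.2 and 11.6 CPM at Day 3, 17.0, 17.9 and 17.2 at Day 10 and 102, 96.9 and 108 at Day 14, against 608, 580 and 563 CPM in the monolayer. It shared the highest Day 3 value in replicate 1 with GPR83. KCNMB3, an accessory subunit of calcium-activated potassium channels, had 25.4, 20.1 and 18.4 CPM at Day 3 and 138, 146 and 145 at Day 14, against 1633, 1546 and 1487 CPM in the monolayer. Of the 10 it was the one furthest below the monolayer at Day 3, at 72.8-fold, against 142-fold for GPR83. EGR1, an immediate early transcription factor, had 2.06, 1.59 and 2.41 CPM at Day 3 and 12.3, 10.6 and 12.1 at Day 14, against 86.6, 69.6 and 85.3 CPM in the monolayer. ARHGEF2, an exchange factor for the GTPase RhoA, had 12.999, 11.4 and 9.32 CPM at Day 3 and 48.8, 47.9 and 55.1 at Day 14, against 178, 189 and 183 CPM in the monolayer.

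Across the 10 genes the Day 3 mean was 1.37% to 10.7% of the monolayer and the Day 14 mean 9.21% to 42.2%. Their Day 14 levels were 2.12-fold to 6.10-fold those of Day 10. GPR83 went further at both steps, at 0.669% and 16.3-fold, which is not independent of its choice by these steps. Its Day 14 share of 10.1% lay inside the range of the 10 genes. The Day 21 mean lay below the Day 14 and Day 28 means in all 10, which follows from choosing them by likeness over the same libraries. In HSPA13 the Day 14 and Day 21 libraries overlapped. TRIB3 is a stress-induced pseudokinase, and MAP1LC3B encodes the LC3B protein of autophagosomes. GTPBP2 is a GTP-binding protein, IFRD1 a transcriptional co-regulator, HSPA13 a member of the Hsp70 chaperone family and TMEM268 a transmembrane protein.

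Within a tier the likeness was weaker. Over the 9 libraries of Days 3 to 10, r with GPR83 ran from -0.34 for TRIB3 to 0.81 for KCNMB3. Over the 9 libraries of Days 14 to 28 it ran from 0.45 for HSPA13 to 0.89 for CD55. When likeness was taken over the 7 group means instead, 7 of the 10 genes were named again. In the promoter windows of these 10 genes, all found in the RefSeq table, 6 held TGACG and 4 held CCAAT. The full cAMP element and TGTNCT were in 1 each, and AP-1, TEAD and TATAAA motifs in 0.

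**Figure D3:**
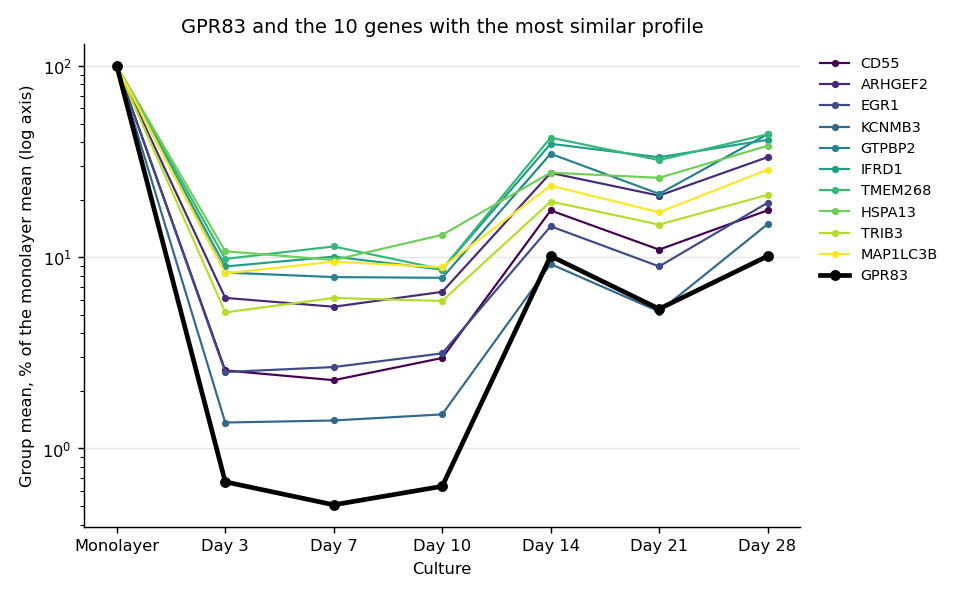
Group means as a percentage of the monolayer mean (log axis) for GPR83, in black, and the 10 genes with the highest correlation to it over 21 libraries. At Day 3 the 10 genes stand at 1.37% to 10.7% and GPR83 at 0.669%, and at Day 14 they stand at 9.21% to 42.2% and GPR83 at 10.1%.

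The genes around GPR83 in its pathway were read against the background of each comparison. At Day 3 against the monolayer 78.0% of the 12345 genes tested were called, 40.1% higher and 37.8% lower. At Day 14 against Day 10 the shares were 48.3%, 24.0% and 24.3%. At Day 28 against the monolayer they were 73.4%, 38.5% and 34.8%. With libraries scaled by size alone, 46.1% were called higher and 31.7% lower at Day 3, and 45.9% and 27.8% at Day 28. The median log2 fold changes of all genes tested in these 3 comparisons were 0.06, 0.02 and 0.08. Genes called both lower at Day 3 and higher at Day 14 made up 15.7% of all genes tested.

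Of 9 genes for the proposed ligand precursors and the enzymes that cut and trim prohormones, 5 passed the filter on low counts. At Day 3, 1 was called higher and 3 lower, with a median log2 fold change of -0.39. Of all genes tested, 40.1% were called higher and 37.8% lower. PCSK1N, which encodes proSAAS, stood at 11.5, 13.5 and 16.8 CPM at Day 3, against 1.31, 2.32 and 1.17 CPM in the monolayer, and rose by 3.07 ± 0.20 on the log2 scale. By group means the precursor transcript was highest at Days 3, 7 and 10, where the receptor transcript was lowest. At Day 14 its log2 difference from Day 10 was -0.32 ± 0.17, which was not called with all libraries but was without Day 14 replicate 2 (-0.46, edgeR adjusted p = 0.0474).

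The other tested precursor genes process many secreted proteins. CPE, a carboxypeptidase that trims neuropeptides, fell slightly at Day 3 (-0.40 ± 0.065) and rose at Day 14 (0.64 ± 0.065). It had 330, 347 and 372 CPM at Day 14, against 210, 229 and 232 CPM at Day 10. CPD, a related carboxypeptidase, fell at Day 3 (-0.39 ± 0.077) and rose at Day 14 (0.70 ± 0.077). Its Day 3 call was lost when libraries were scaled by size alone (-0.17, edgeR adjusted p = 0.0768). FURIN, a proprotein convertase, fell by 1.69 ± 0.23 at Day 3 and rose by 0.94 ± 0.24 at Day 14. PCSK1 and PCSK2, the prohormone convertases of neuroendocrine cells, had 0 counts in all 21 libraries, and FAM237A and FAM237B had 1 and 2 counts. SCG5, a chaperone of PCSK2, stood at 0.324 ± 0.0790 CPM at Day 3 and 0.261 ± 0.0970 in the monolayer and was not called.

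Of 30 genes for other peptide receptors, among them proposed partners of GPR83, 6 passed the filter. GPR171, the receptor of another proSAAS peptide, had 56 counts over all libraries, the ghrelin receptor gene GHSR had 11, MC4R had 1 and MC3R had 0. At Day 3, 4 of the 6 tested were called higher and 0 lower, against 40.1% and 37.8% of all genes tested. SSTR1 and SSTR3 were at 0 counts in the monolayer, so they passed the filter only through spheroid libraries. They could not have been called lower. GALR2, a galanin receptor, rose to 1.72 ± 0.477 CPM at Day 3, against 0.388 ± 0.235 CPM in the monolayer. The somatostatin receptor genes SSTR1 and SSTR3 had 0 counts in the monolayer and 0.320 ± 0.101 and 0.248 ± 0.0751 CPM at Day 3, at least 9.99-fold and 7.74-fold higher, with 3 counts over the monolayer libraries as the floor. All these levels are low. With only the 2 groups in the fit, 1 of these genes was called at Day 3. The filter was run anew in that fit, so genes not called there may not have been tested.

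Genes for the G proteins and the phospholipase C pathway through which GPR83 is known to signal were mostly lower at Day 3. Of 16, 12 were tested, with 3 called higher and 7 lower and a median log2 fold change of -0.71. The shares of all genes tested were 40.1% and 37.8%. Among the 3, GNA14 had 0 counts in the monolayer and passed the filter only through spheroid libraries. It could not have been called lower. GNAQ, the Gq alpha subunit, fell by 0.75 ± 0.086 at Day 3 and rose by 0.63 ± 0.088 at Day 14. It had 62.1, 57.0 and 69.0 CPM at Day 14, against 37.1, 37.6 and 46.9 CPM at Day 10. GNAZ, an alpha subunit of the Gi family, had 177, 169 and 189 CPM at Day 3, against 335, 297 and 308 CPM in the monolayer.

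PLCB1, a phospholipase C that Gq activates, had 121, 119 and 123 CPM at Day 3, against 483, 438 and 460 CPM in the monolayer. It rose by 0.95 ± 0.079 at Day 14 over Day 10 and stood at 322 ± 7.11 CPM at Day 28. The receptors that release calcium on inositol trisphosphate went apart at Day 3, as ITPR2 rose by 2.22 ± 0.068 and ITPR3 fell by 2.39 ± 0.11. GNAQ, GNAZ and PLCB1 were the 3 of 12 called both lower at Day 3 and higher at Day 14, a share of 25% against 15.7% of all genes tested. At Day 28, 1 of the 12 was called higher than in the monolayer and 8 lower, against 38.5% and 34.8% of all genes tested.

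Genes that switch receptors off changed in both directions, as did all genes tested (40.1% higher and 37.8% lower at Day 3). Of 15 kinases, arrestins and RGS proteins, 11 were tested, with 5 called higher and 4 lower at Day 3 and a median log2 fold change of 0.20. With libraries scaled by size alone, 6 were called higher and 2 lower, with a median of 0.41. ARRB1 rose to 42.7, 45.1 and 41.6 CPM at Day 3, against 19.1, 19.1 and 17.0 CPM in the monolayer. ARRB2, the other broadly used arrestin, fell to 3.50, 3.53 and 2.87 CPM at Day 3, against 10.1, 11.4 and 10.3 CPM in the monolayer. GRK5, a receptor kinase, rose by 1.07 ± 0.16. RGS2, which speeds the shut-off of Gq, fell by 1.55 ± 0.24 at Day 3 and rose by 1.23 ± 0.22 at Day 14. It was the 1 gene of the 11 (9.09%) called lower at Day 3 and higher at Day 14, against 15.7% of all genes tested.

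Glucocorticoid-responsive genes were included because GPR83 was first found as one in mouse cells. Of 14, 12 were tested, and at Day 3 4 were called higher and 6 lower, with a median log2 fold change of -0.84. The shares of all genes tested were 40.1% and 37.8%. NR3C1, the glucocorticoid receptor, had 23.1, 25.7 and 22.8 CPM at Day 3, against 68.6, 78.1 and 73.9 CPM in the monolayer. At Day 14 it had 45.5, 42.3 and 46.2 CPM, against 23.7, 27.1 and 28.9 CPM at Day 10, and both differences were called. Like GPR83 it then had a lower mean at Day 21, at 33.7, 35.3 and 35.7 CPM.

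TAT, a tyrosine-degrading liver enzyme that glucocorticoids and cAMP induce, fell by 2.00 ± 0.10 at Day 3 and rose by 2.64 ± 0.099 at Day 14. It had 262, 243 and 300 CPM at Day 14, 156, 135 and 169 at Day 21 and 435, 307 and 382 at Day 28. It thus had a dip at Day 21 too but, unlike GPR83, exceeded its monolayer level of 109 to 111 CPM. TSC22D3, which encodes the glucocorticoid-induced leucine zipper, rose by 3.77 ± 0.70 at Day 14, from few counts. DUSP1, a phosphatase of MAP kinases, fell by 4.50 ± 0.098 at Day 3 and was not called at Day 14 (0.17 ± 0.089), though it was with libraries scaled by size alone (0.22, edgeR adjusted p = 0.0372) and without Day 10 replicate 3 (0.26, edgeR adjusted p = 0.0276). PCK1, a gluconeogenic enzyme, and SGK1, a serum- and glucocorticoid-regulated kinase, rose at Day 3 by 2.61 and 1.67 on the log2 scale. FKBP5, another member of the list, went the opposite way to GPR83 at both steps, with log2 fold changes of 0.34 at Day 3 and -0.35 at Day 14. At Day 14, 4 of the 12 were called higher and 2 lower, against 24.0% and 24.3% of all genes tested. Of the 12, 3 were called lower at Day 3 and higher at Day 14, a share of 25% against 15.7% of all genes tested.

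Of 13 cAMP-responsive genes, 10 were tested. At Day 3, 1 was called higher and 8 lower with a median log2 fold change of -1.40. At Day 14 5 were called higher and 1 lower with a median of 0.77. The shares of all genes tested were 40.1% and 37.8% at Day 3, and 24.0% and 24.3% at Day 14. The share called both lower at Day 3 and higher at Day 14 was 4 of 10, against 15.7% of all genes tested. SIK1, a kinase that cAMP signalling induces, fell by 1.71 ± 0.12 at Day 3 and rose by 0.78 ± 0.12 at Day 14. JUNB, an immediate early factor, fell by 1.52 ± 0.11 and rose by 1.05 ± 0.11. CRTC2, a coactivator of CREB, fell by 1.96 ± 0.12 and was not called at Day 14 (0.01 ± 0.12). PPARGC1A, a coactivator of mitochondrial and gluconeogenic genes, rose at both steps, by 0.57 ± 0.10 and 1.35 ± 0.097.

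**Figure D4:**
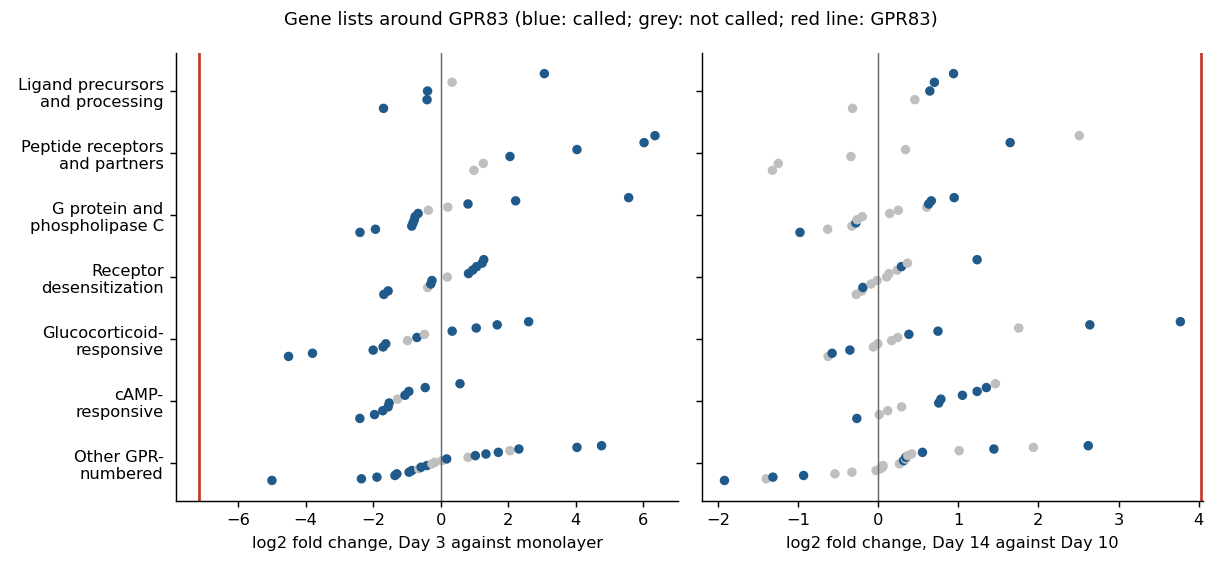
Log2 fold changes of the tested genes of 7 lists at Day 3 against the monolayer and at Day 14 against Day 10, 1 point per gene, dark blue where called and grey where not, with a red line at GPR83 (-7.15 and 4.03). No listed gene has a lower value than GPR83 in the left panel or a higher one in the right, but GPR83 was chosen by these steps. The fitted values of GNA14, SSTR1 and SSTR3 in the left panel depend on the fit because these genes had 0 counts in the monolayer.

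Other receptor genes with a GPR number changed in both directions, as did all genes tested (40.1% higher and 37.8% lower at Day 3). The table held 76, of which 22 were tested. At Day 3, 7 were called higher and 9 lower, with a median log2 fold change of -0.21 that came to -0.00348 when libraries were scaled by size alone. At Day 14, 5 were called higher and 3 lower, against 24.0% and 24.3% of all genes tested. Without Day 14 replicate 3, 5 of the receptors were called in all. GPR35, a receptor known from the gut and immune cells, had 173, 166 and 163 CPM at Day 3, against 431, 427 and 424 CPM in the monolayer, and rose by 0.32 ± 0.069 at Day 14. GPR39, a zinc-sensing receptor, fell by 2.34 ± 0.17 at Day 3 and was not called at Day 14 (0.26 ± 0.18). GPR119, a receptor for lipid amides, rose to 2.71 ± 0.590 CPM at Day 3, against 0.0923 ± 0.0318 CPM in the monolayer. GPR137B had the largest fall of the 22, to 0.0709 ± 0.123 CPM at Day 3, against 2.14 ± 0.740 CPM in the monolayer.

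The genes next to GPR83 on chromosome 11 had profiles of their own. Of the 10 protein-coding genes on each side in the RefSeq order, 13 were tested. At Day 3, 5 were called higher and 2 lower, with a median log2 fold change of 0.22, against 40.1% and 37.8% of all genes tested. IZUMO1R, the adjacent gene on one side, had 7 counts over all libraries and was not tested. PANX1, a channel protein gene and the next one on that side, had 64.8, 63.6 and 61.9 CPM at Day 3, against 137, 129 and 135 CPM in the monolayer. It was not called at Day 14 (-0.02 ± 0.066 against Day 10).

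MRE11, a DNA repair nuclease and the adjacent gene on the other side, rose at Day 3 (0.58 ± 0.071) and fell at Day 14 (-0.99 ± 0.072), the opposite of GPR83 at both steps. ANKRD49, the gene after it, was not called at Day 3 (-0.17 ± 0.23). Its rise at Day 14 (0.57 ± 0.24, edgeR adjusted p = 0.0452) was lost in each of the 6 fits that left out 1 library of the 2 days. TAF1D, a subunit of an RNA polymerase I factor, was the 1 gene of the 13 called lower at Day 3 (-2.34 ± 0.069) and higher at Day 14 (0.84 ± 0.067). Genes called so made up 15.7% of all genes tested.

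**Figure D5:**
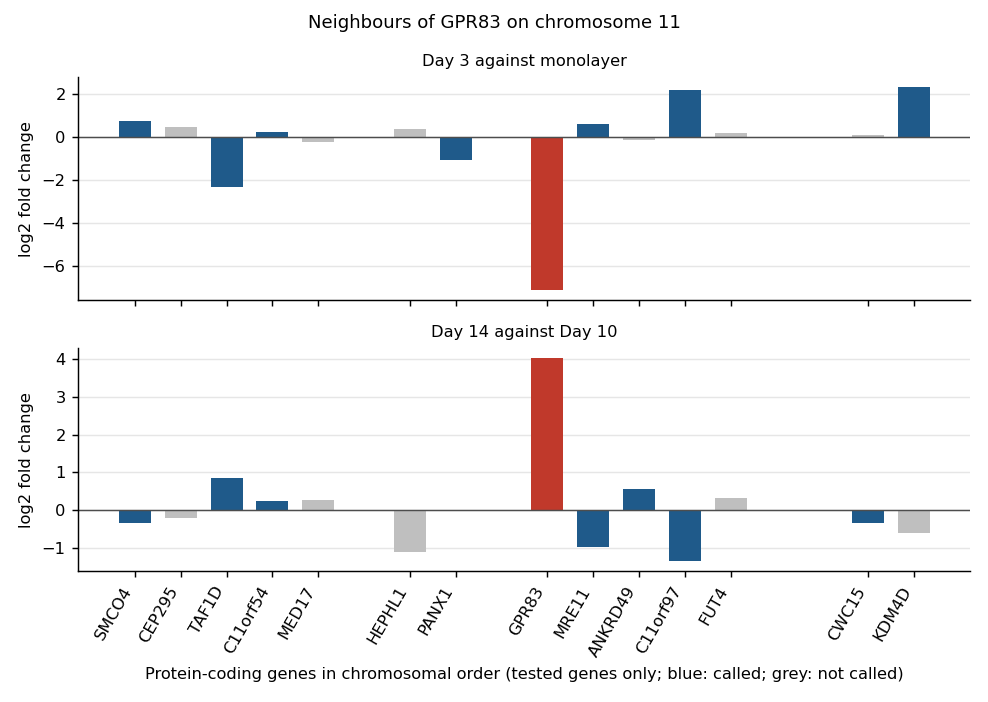
Log2 fold changes of GPR83, in red, and its tested protein-coding neighbours in chromosomal order at Day 3 against the monolayer (upper panel) and at Day 14 against Day 10 (lower panel), dark blue where called and grey where not. MRE11, beside GPR83, changes in the opposite direction at both steps.

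Markers of the cell types in which GPR83 is best known were read in the same libraries. Of 8 T cell genes, CD2, IL2RA and PTPRC had 0 counts throughout, CD3E had 2 counts and FOXP3 had 11 counts in all libraries. The summed level of the 8 was 3.36 to 4.25 CPM (Day 3), 5.47 to 6.81 (Day 7), 4.88 to 8.28 (Day 10) and 2.97 to 3.47 (Day 14), against 1.30 to 2.16 CPM in the monolayer, most of it CD3D. Of 9 neuron and neuroendocrine genes, STMN2 and ELAVL4 had 0 counts throughout, SNAP25 and RBFOX3 had 2 counts each and CHGA had 8. CHGB, a granin of secretory granules, and SYP, a synaptic vesicle protein, were counted and rose at Day 28 against the monolayer by 2.41 ± 0.31 and 2.98 ± 0.62 on the log2 scale. CHGB then averaged 4.51 ± 1.51 CPM, against 0.881 ± 0.322 CPM in the monolayer. The summed level of the 9 was 25.3 to 28.3 CPM at Day 3, 37.9 to 39.8 at Day 10 and 22.9 to 23.3 at Day 14, against 78.4 to 86.2 CPM in the monolayer. Most of that sum was ENO2, a glycolytic enzyme that neurons also make, at 25.3 ± 1.23 CPM at Day 3 and 19.4 ± 0.566 at Day 14, against 79.8 ± 4.26 CPM in the monolayer. ENO2 fell at Day 14 against Day 10 by 0.89 on the log2 scale, where GPR83 was higher.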

How the data were processed

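The 21 TempO-Seq libraries of HepG2/C3A cells were grouped by the labels. The deposited data are raw counts in 1 table, with a row for each gene symbol. Per the submitters' processing notes the tools were STAR 2.7.10b, fastp 0.23.2, bcl2fastq 2.20.422 and DESeq2 1.38.0, on GRCh38.p13; the step each served is not stated. The sources used here do not give how probes of 1 gene were combined. A count depends on its probe, so levels compare libraries, not genes.

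Genes passing edgeR's filter at a minimum count of 10 were kept (12345 of 19683) and fitted together over 7 groups by robust quasi-likelihood with TMM scaling (edgeR 4.0.16, R 4.3.3). The SE is the absolute log2 fold change over the square root of F. The biological coefficient of variation was 9.62%. Scripts were tested on simulated data. Replicate pairs differed by more than sampling noise (chi-square per degree of freedom 5.68 to 29.7).

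GPR83 and the gene lists were chosen with earlier results of these data known. Genes were named if among the 10 most like GPR83, if their fitted Day 3 fall was over 100-fold or nearest to it, if among up to 6 largest Day 3 changes of a list or needed by role, or if adjacent on the chromosome. Of the 39 genes with the over 100-fold fall, those at 10 CPM or more in the monolayer are named. Sequences are from RefSeq. Replicate numbers are shared by groups but did not pair the libraries in the comparisons checked. Alternatives were library size alone, DESeq2 size factors, no filter, a replicate block, fits of only 2 groups, DESeq2 1.42.0 and leaving out each library.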

Additional observations from a re-analysis of the deposited data

How the results depend on the processing

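For GPR83, leaving out single libraries gave a Day 3 fall of 120-fold to 209-fold and a Day 14 level 14.5-fold to 18.2-fold that of Day 10. The Day 28 against Day 21 difference ranged from 0.72 to 1.11 (log2), and it was not called without Day 28 replicate 3. Over those fits its edgeR adjusted p ranged from 0.00379 to 0.0709. Under the other settings with a filter it ranged from 0.00231 (edgeR, only the 2 groups) to 0.0240 (DESeq2). With no filter the edgeR adjusted p was 1.62e-17 at a like log2 difference of 0.92, which is not read as stronger evidence. Scaling by library size alone put the monolayer level at 208 CPM in place of 231, and shifted the median of all genes by 0.22 at Day 3 and 0.22 at Day 28 against the monolayer. GPR83 then stood at -6.93 at Day 3. Under that scaling CPD at Day 28 against the monolayer changed sign, to 0.043 in place of -0.17. Called peptide receptors numbered 2 in place of 1 at Day 14 with no filter, and 1 to 2 when single libraries were left out. With only the 2 groups compared they were 1 in place of 4 at Day 3 and 2 in place of 5 at Day 28. Those fits filtered genes anew, so a lost call there can be a gene no longer tested. Other GPR-numbered receptors called at Day 14 were 5 to 7 when single libraries were left out, against 8. Medians of that list at Day 28 (-0.16) and of the neighbours (-0.13) became 0.060 and 0.088 with library size alone. GPR83 at Day 7 against Day 3, not tested, was -0.48 with all libraries and 0.087 without Day 3 replicate 1. Of 508 alternative values of the main results 501 stayed on the same side of their test, within 1.5 times for counts, or within the replicate SD for untested values. For single genes 1358 of 1402 stayed on the same side of the test. Replicate numbers did not pair the libraries where this was checked, as deviations of same-numbered samples correlated at -0.03 to 0.10. Checked were Days 3 and 28 against the monolayer, Day 10 against Day 7, Day 14 against Day 10 and Day 28 against Day 21. Day 7 against Day 3, where replicate 1 had the highest GPR83 level on both days, was not checked. With a replicate block GPR83 stood at -7.17 at Day 3 and 4.01 at Day 14 against Day 10, and its Day 28 against Day 21 difference at 0.94 (adjusted p = 0.0109). Depth limits the values of Days 3 to 10, which rest on 27 to 98 GPR83 counts per library.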
